A study of Mus musculus with 56 samples.

Results

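The cholesterol synthesis genes Hmgcs1, Idi1, Fdps, Sqle, Lss, Insig1 and Srebf2 were followed in the liver, lung and forestomach of MutaMouse males given chrysene, a polycyclic aromatic hydrocarbon, by mouth. They were 7 of the 20018 genes that could be named on the array, and 8 of its 55681 probes target them, because Srebf2 has 2 probes. The probes were found through the RefSeq accession that the scanner files give for each spot, and for each gene and tissue the probe that was brightest in Cy5 on average was used. The genes share a pathway, and the rule that picks their probes uses no difference between groups.

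MutaMouse is a transgenic strain that carries a bacterial reporter for scoring mutations. The males were about 14 weeks old, were housed singly with free access to food, and were gavaged on 28 days in a row. The D0 controls got olive oil, and the D1, D2 and D3 mice got chrysene dissolved in it, at daily doses of 17.5, 50 and 150 mg per kg body weight. All groups thus received the oil, and tissues were taken 72 hours after the last gavage, so the values describe the tissue some days after exposure ended. The 56 arrays hold 1 mouse and tissue each, with 5 mice in every group but D2, which had 4 for liver and forestomach and 3 for lung. RNA came from frozen sections of whole tissue, in which fewer cells of a type and less RNA per cell cannot be told apart. Each level below is the log2 ratio of the sample's RNA (Cy5) to a reference RNA pooled from 11 mouse cell lines (Cy3) on the same array, so levels are compared between tissues and doses for 1 gene and not between genes.

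Cells build cholesterol from acetyl-CoA along a long chain of enzymes in the cytosol and the endoplasmic reticulum. Hmgcs1 makes HMG-CoA early in that chain, Idi1 interconverts the isoprenoid building blocks, Fdps joins them to farnesyl diphosphate, Sqle adds oxygen to squalene, and Lss closes the rings to lanosterol. Srebf2 encodes the transcription factor SREBP-2, which is held in the endoplasmic reticulum while sterols are plentiful and switches on these enzymes when sterols fall. Insig1 encodes the protein that holds it there, and is itself a target of SREBP factors. The liver makes much of the body's cholesterol and adjusts the enzymes to feeding and the time of day.

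The promoter letters are shown as a description. Their part in the co-variation of these genes in liver, described further on, was not tested. SREBP factors are known to act beside the general factors NF-Y, which reads CCAAT, and Sp1, which reads GGGCGG. RefSeq promoter entries (GRCm38.p6) were matched for 5 of the 7 genes, which leaves out Fdps and Sqle. The 250 bases before the annotated start, all on the plus strand, are given for Hmgcs1 at chr13:119690101-119690350, Idi1 at chr13:8885356-8885605 and Srebf2 at chr15:82147019-82147268, with matches to the sterol element TCACNCCAC and to CCAAT on either strand in capitals.
Hmgcs1: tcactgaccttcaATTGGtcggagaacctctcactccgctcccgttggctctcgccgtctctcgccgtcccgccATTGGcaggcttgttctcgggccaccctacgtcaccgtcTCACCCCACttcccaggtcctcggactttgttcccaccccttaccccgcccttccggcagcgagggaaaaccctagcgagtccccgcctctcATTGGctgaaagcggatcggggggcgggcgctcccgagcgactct
Idi1: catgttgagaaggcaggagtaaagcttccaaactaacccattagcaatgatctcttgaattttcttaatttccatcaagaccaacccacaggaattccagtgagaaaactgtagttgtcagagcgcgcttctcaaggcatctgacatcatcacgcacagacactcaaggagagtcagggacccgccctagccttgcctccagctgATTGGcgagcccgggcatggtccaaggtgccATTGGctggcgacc
Srebf2: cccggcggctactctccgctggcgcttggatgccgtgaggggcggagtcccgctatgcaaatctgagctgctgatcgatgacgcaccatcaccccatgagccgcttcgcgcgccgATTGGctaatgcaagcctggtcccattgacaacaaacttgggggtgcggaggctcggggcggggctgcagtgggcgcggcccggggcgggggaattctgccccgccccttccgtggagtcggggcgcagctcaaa

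CCAAT was found in the promoters of all 5 genes with an entry, each time on the opposite strand as ATTGG, against 33.8% of 32851 promoters over the same 250 bases. Hmgcs1 held it at 237, 176 and 45 bases before the start, Idi1 at 45 and 14, Lss at 62, Insig1 at 216 and Srebf2 at 135. The sterol element was found in Hmgcs1 alone among the 5, at 137 bases before the start, and in 1.05% of all promoters. GGGCGG, searched on both strands, was found in all 5 and in 32.7% of promoters. Of 12 other pathway genes with an entry, 10 held CCAAT, 11 held GGGCGG and 0 held the sterol element. A match is a run of letters in this window and not a measured binding site.

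Before the levels are compared, the labelled tissues were checked against marker genes. All 8 hepatocyte genes (such as Alb and Ttr) were bright in liver, where their mean log2 ratio lay between 6.26 and 6.60 over the 19 arrays. The 5 genes of the surfactant-producing alveolar cells lay between 5.39 and 5.88 in lung, and the 8 keratinocyte genes between 4.81 and 7.49 in forestomach, the squamous part of the stomach. Lung and forestomach arrays also carried genes of other tissues. In lung, mice 17 and 19 of D3 had skeletal muscle genes (9 of 9 well above background) at 5.29 and 5.02 against -0.86 to -0.65 in D0, and keratinocyte genes at 3.54 and 3.93 against -0.48 to -0.39. The 6 adipocyte genes varied over all lung groups, from 0.50 to 2.51 in D0, 0.75 to 1.64 in D1 and 1.21 to 3.89 in D3, where mice 17 and 19 were again the highest, and D2 mouse 13 was above every D0 mouse. In forestomach, the 8 genes of glandular stomach, the acid-secreting part next to it, ranged from 0.65 to 6.65 in D0, 0.31 to 6.08 in D1, 5.20 to 6.76 in D2 and 0.55 to 6.80 in D3. The adipocyte genes ranged there from 0.01 to 4.35 in D0, with mice 2 and 5 at 4.35 and 4.13, and from -0.02 to 2.85 in D3. The pancreatic acinar genes of D3 mouse 19 stood at 5.10 against 0.06 to 1.02 in D0. Hepatocyte genes ranged from -0.02 to 2.13 in D0 and from 0.29 to 2.53 in D3. The part of all these in the lung and forestomach results was not tested. Spots well above background made up 34.5% to 46.4% in liver and 49.0% to 56.7% in lung. In forestomach they split by slide, with 24.6% to 34.9% on the first, 18.9% to 30.1% on the second and 40.4% to 51.7% on the third.

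All 7 genes were bright enough to test in each tissue. The probes were well above background on every liver and lung array. In forestomach, Insig1 was so on 13 of 19 arrays (2 of 5 in D0) and Srebf2 on 18 of 19, and no spot of these probes was saturated or non-uniform.

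The first comparison asks where these genes were most abundant. With dose groups averaged, the 5 enzymes and Insig1 had their highest mean in liver, a lower one in forestomach and the lowest in lung, but Sqle between liver and forestomach and Insig1 between forestomach and lung did not pass both limits. Srebf2, which encodes the factor that drives them, did not pass between liver and lung and was highest in forestomach. A gene was called different where limma's Benjamini-Hochberg adjusted p over all probes tested was at most 0.05 and the fold at least 1.5. Between liver and lung, 21.5% of 32870 probes were called higher and 25.2% lower in liver, so a call alone says little.

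**Figure D1:**
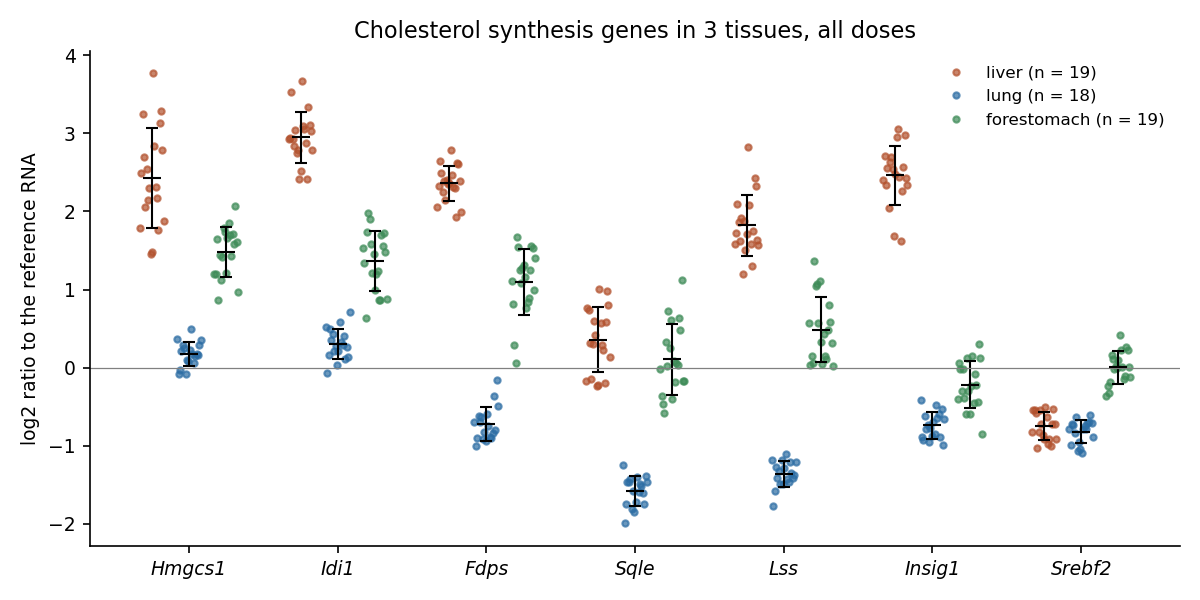
Log2 ratio to the reference RNA (vertical axis) for each gene in liver, lung and forestomach; each point is 1 array of any dose and the black bar is the mean with its SD. Every liver point of the first 6 genes lies above every lung point, and for Srebf2 the liver and lung points overlap below those of forestomach.

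Hmgcs1 had a mean log2 ratio of 2.43 ± 0.64 (SD, n = 19) in liver, 1.48 ± 0.32 (n = 19) in forestomach and 0.18 ± 0.16 (n = 18) in lung. With the 4 dose groups weighted equally, liver exceeded lung by 2.26 ± 0.14 (SE, log2), which is 4.80-fold (adjusted p = 6.97e-21 by limma), and forestomach by 0.96 ± 0.13. Its lowest liver arrays (down to 1.45) overlapped the forestomach range of 0.86 to 2.07. Idi1 was at 2.95 ± 0.33 in liver, 1.36 ± 0.38 in forestomach and 0.30 ± 0.20 in lung, a liver excess over lung of 2.65 ± 0.10 or 6.28-fold. Its lowest liver array, at 2.42, was above its highest forestomach array, at 1.98.

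Fdps, Lss and Insig1 had the largest differences of the 7 genes between liver and lung with the normalization within arrays; with median centring Idi1 came before Lss and Insig1. Fdps was 8.59-fold higher in liver than in lung (SE 0.092 on the log2 scale, adjusted p = 1.41e-33 by limma), with liver arrays from 1.92 to 2.79 and lung arrays from -1.01 to -0.16. Lss was 9.13-fold higher (3.19 ± 0.11), with 1.19 to 2.82 in liver and -1.77 to -1.11 in lung. Insig1 was 9.18-fold higher (3.20 ± 0.10), with 1.62 to 3.06 in liver and -0.99 to -0.42 in lung. None of these ranges met.

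Sqle had the smallest liver excess of the 5 enzymes over forestomach. Its liver level of 0.36 ± 0.41 was only 0.27 ± 0.12 above its forestomach level of 0.10 ± 0.45, which passed the p limit (adjusted p = 0.0338 by limma) but not the fold limit, and the arrays of both tissues overlapped. At D1 its mean was 0.24 in forestomach and 0.17 in liver. Lung, at -1.59 ± 0.19, was 3.84-fold below liver and 3.20-fold below forestomach. With arrays centred on their median the difference between liver and forestomach was 1.59, so its size rests on the normalization.

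Srebf2 was at -0.75 ± 0.18 in liver and -0.82 ± 0.15 in lung, a difference of 0.06 ± 0.06 (adjusted p = 0.296 by limma) with overlapping ranges. Forestomach, at 0.0006 ± 0.21 (range -0.36 to 0.42), was 1.69-fold above liver (adjusted p = 2.37e-17 by limma) and 1.77-fold above lung. The mean of both Srebf2 probes gave a smaller difference between liver and forestomach, -0.57, which is below the fold limit. With arrays centred on their median, Srebf2 in liver minus forestomach was -0.30 (adjusted p = 0.275 by limma), no longer a call, and in liver minus lung it was -1.43, which was a call.

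Between liver and forestomach, 5 of 7 genes were called higher in liver and Srebf2 lower, against 19.0% and 22.5% of 29794 probes. Between forestomach and lung, 6 of 7 were called higher in forestomach, against 17.9% higher and 18.6% lower of 32715 probes. Insig1, at 0.52 ± 0.10, stayed below the fold limit there. The order of forestomach and lung rests on the normalization within each array. With arrays centred on their median instead, the probes tested shifted as a whole by -1.05 between forestomach and lung, all 7 genes lay below 0 (-0.20 to -1.25), and 5 of the 7 lay above that shift. The liver excess over both other tissues kept its direction for the 5 enzymes and Insig1 under that centring, in which liver against lung shifted by -0.74 over all probes, but its size changed. Over lung the log2 excess was 1.95 for Fdps, 1.69 for Idi1, 1.53 for Lss, 1.51 for Insig1, 1.31 for Hmgcs1 and 1.03 for Sqle, each smaller than with the normalization within arrays. Over forestomach it ran from 1.59 (Sqle) to 2.93 (Idi1).

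Most of the 15 other enzymes of the pathway followed the same order. All 15 were called higher in liver than in lung, with a median difference of 3.05 (1.49 to 5.18), against a median of -0.03 over all probes tested. Between liver and forestomach 13 of 15 were called higher in liver, and Mvk, the mevalonate kinase, differed by -0.30 without passing the fold limit. Between forestomach and lung 14 of 15 were called higher in forestomach, under the normalization used here.

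The second comparison asks whether chrysene changed these genes. None passed the test: 0 of 7 genes were called at D1, D2 or D3 or in the trend over dose, in any of the 3 tissues. The background was also low. In liver, limma called 0% of 24795 probes at each dose and in the trend (0% in all 4). In lung it called 0% of 31515 probes at D1 and D2, 0.127% at D3 and 0.168% in the trend, and in forestomach 0% of 27541 at D1 and D2, 0.00726% at D3 and 0.0399% in the trend. These backgrounds rest on few arrays and on the fit: without lung mice 17 and 19 the 40 lung probes called at D3 and the 53 in the trend became 0 and 0, and with array weights the 2 forestomach probes called at D3 became 137 and the 11 in the trend 248.

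**Figure D2:**
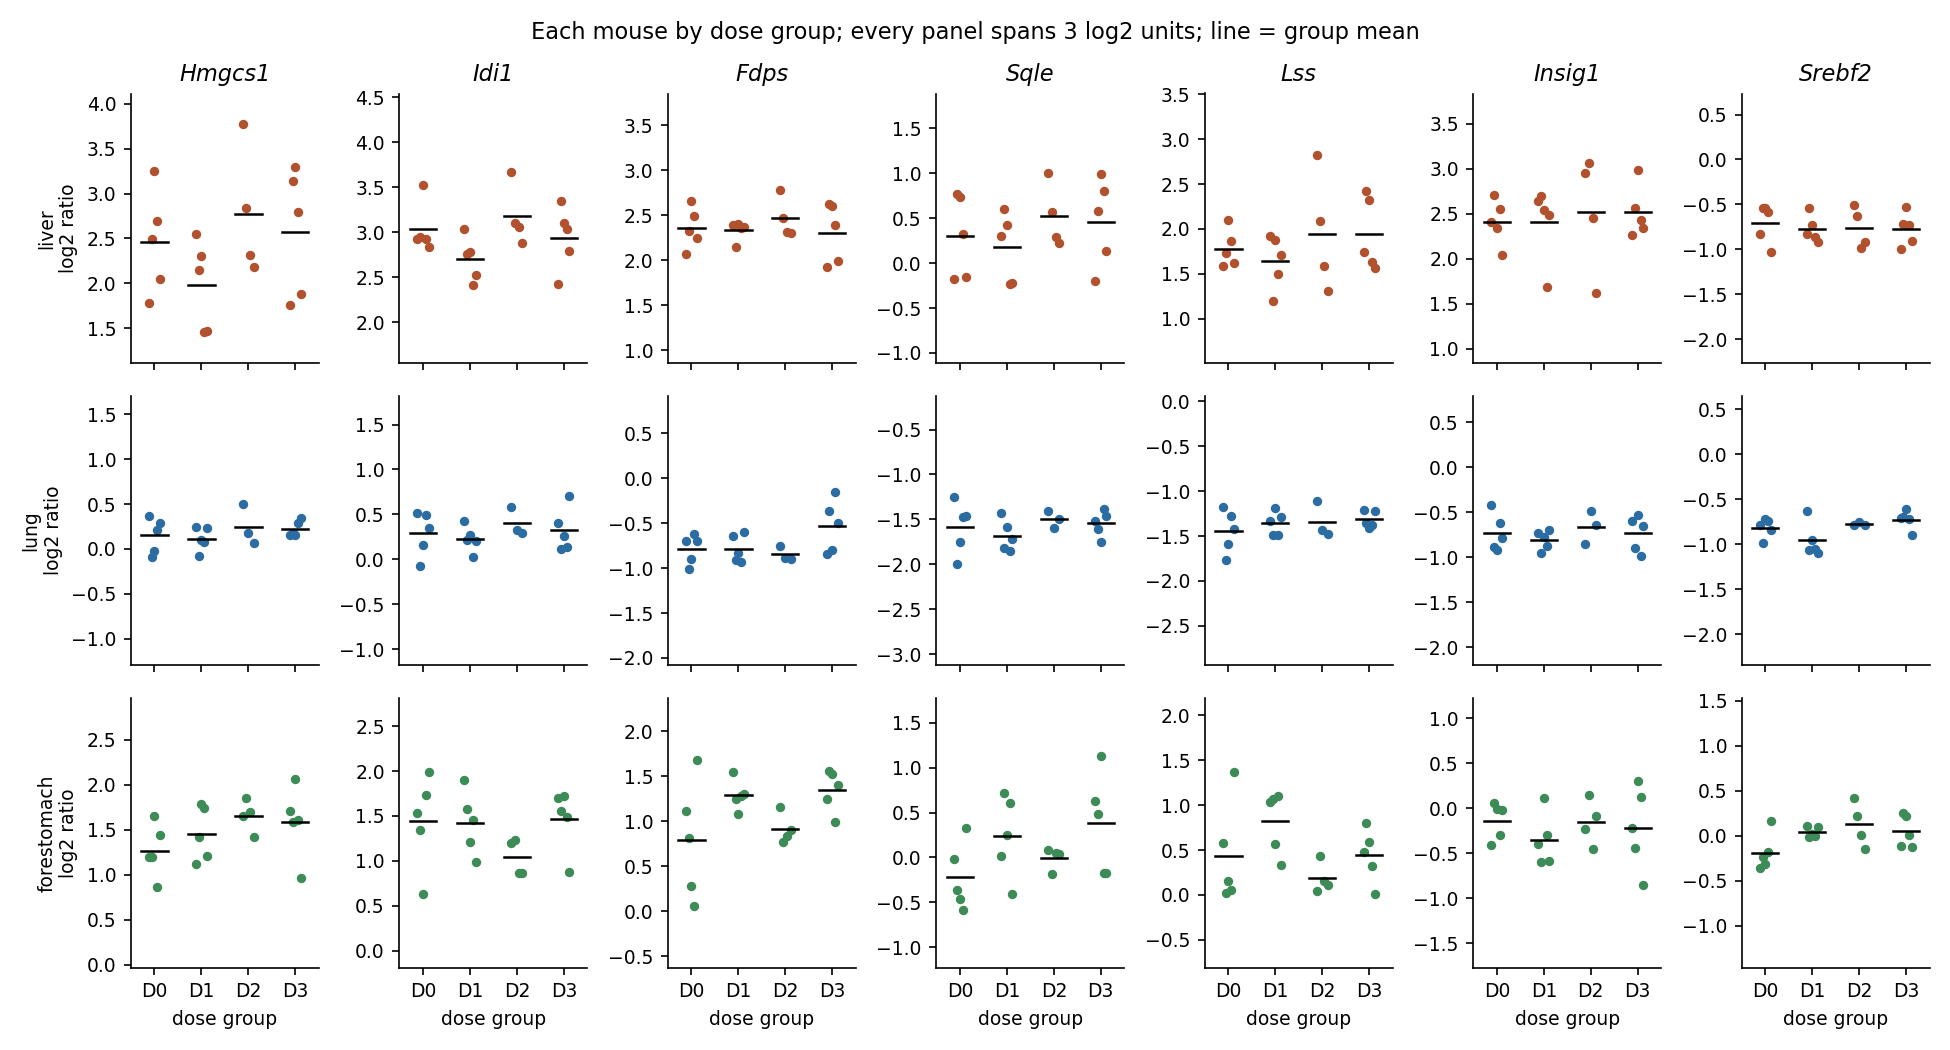
Log2 ratio (vertical axis, 3 log2 units in every panel) of each mouse by dose group, with the group mean as a line, for the 7 genes (columns) in liver, lung and forestomach (rows). In liver the spread of Hmgcs1 within a dose group is wider than any difference between the group means.

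At an unadjusted p of at most 0.05 (limma), 0 of 7 genes passed in liver, where 3.61% of all probes did at D1, 3.79% at D2, 4.79% at D3 and 5.42% in the trend. In lung the count was 0 at D1 (5.89% of probes) and D2 (6.12%), 1 at D3 (16.2%) and 0 for the trend (17.3%). In forestomach it was 1 at D1 (4.16% of probes), also 1 at D2 (7.53%), 2 at D3 (9.24%) and 0 for the trend (9.18%). With each mouse left out in turn, the forestomach counts ran from 0 to 4 at D1 and 0 to 2 at D2. They ran from 0 to 4 at D3 and 0 to 3 for the trend. In liver and lung they were at most 1.

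In liver, the largest change of an enzyme at any dose was that of Hmgcs1 at D1, -0.47 ± 0.36 (SE, adjusted p = 1 by limma). Hmgcs1 stood at 1.79, 2.49, 3.26, 2.70 and 2.05 in the D0 mice, 2.55, 2.15, 2.31, 1.45 and 1.48 in D1, 3.77, 2.84, 2.31 and 2.18 in D2, and 1.76, 3.14, 3.29, 2.79 and 1.88 in D3. The groups overlapped throughout, and mice of 1 dose differed by up to 3.02-fold, in D2. Its D3 change was 0.12 ± 0.36. On the 3 slides that each carried D0 and D3 liver arrays, the D3 difference of Hmgcs1 was -0.05, 0.07 and -0.04.

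The other liver changes at D3 were small: Idi1 -0.09 ± 0.18, Fdps -0.05 ± 0.14, Sqle 0.16 ± 0.24, Lss 0.16 ± 0.24, Insig1 0.11 ± 0.24 and Srebf2 -0.07 ± 0.12 (log2, SE of limma). All adjusted p values there were 1. At D1 all 7 genes had a negative change and at D2 6 of 7 a positive one, with medians of -0.13 and 0.14 against -0.0048 and -0.0031 over all probes tested. These comparisons share the D0 mice. On 50 of the 56 arrays the column on the slide follows the dose group, so column and dose can hardly be told apart; with column as a covariate the lung D3 change of Hmgcs1 was -0.54 and no gene was called.

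**Figure D3:**
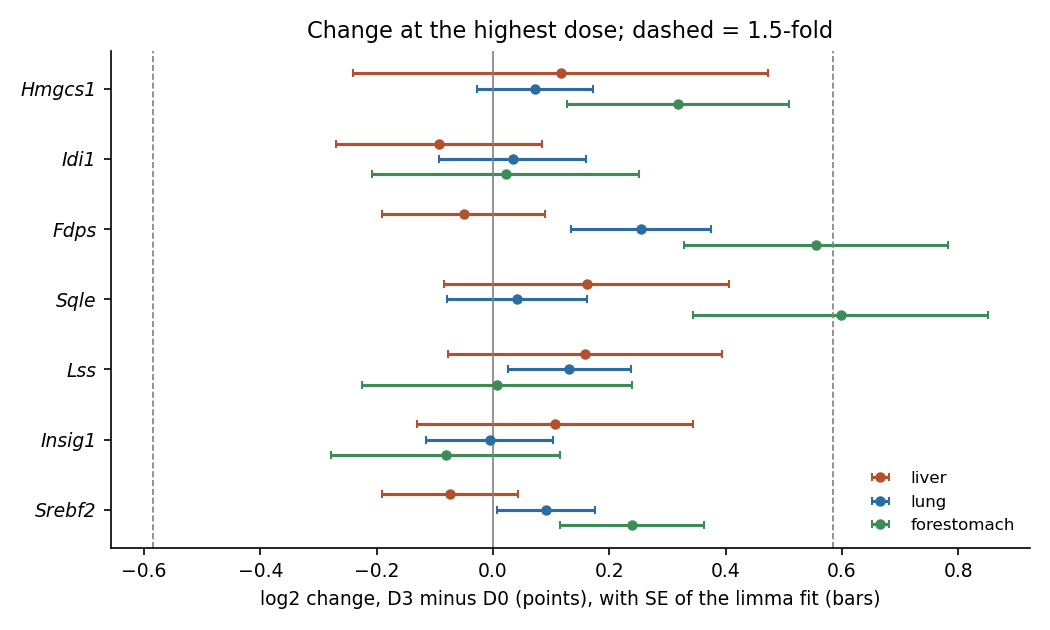
Log2 change at D3 against D0 (horizontal axis) with the SE of the limma fit, for each gene in liver, lung and forestomach; dashed lines mark the 1.5-fold limit. Sqle in forestomach, at 0.60, is the only point past the limit, and its adjusted p was 0.454.

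In lung, Fdps was the gene with the smallest p at D3. It stood at -0.70, -1.01, -0.90, -0.62 and -0.70 in D0, and at -0.84, -0.37, -0.80, -0.16 and -0.50 in D3. The highest D3 values were those of mice 17 and 19, and the groups overlapped. The change was 0.25 ± 0.12 (1.19-fold, adjusted p = 0.309 by limma). Mice 17 and 19 are those whose lung arrays carried skeletal muscle and keratinocyte genes. Without mouse 19 alone the change was 0.16 (adjusted p = 0.614 by limma). Without both it was 0.07 (adjusted p = 0.866 by limma), a comparison chosen after the data had been seen.

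The other lung changes at D3 ran from -0.0059 (Insig1) to 0.13 (Lss), and 6 of 7 genes were above 0. With array column as a covariate the signs turned for 6 genes, with Fdps at -0.52 and Insig1 at 0.63, so no direction is read from these. Lung mice spread less than liver mice for Hmgcs1, which lay between -0.09 and 0.50 over all 18 lung arrays.

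In forestomach, Fdps and Sqle had the largest changes at D3. Fdps stood at 1.11, 0.82, 0.28, 0.06 and 1.68 in D0, and at 1.25, 1.56, 1.53, 0.99 and 1.40 in D3. The D0 mice spread widely and mouse 5 was above every D3 mouse. The change was 0.56 ± 0.23 (1.47-fold, adjusted p = 0.426 by limma). Within the 3 slides it was 0.29, 1.36 and -0.05. At D1 the 5 mice lay between 1.08 and 1.55, a change of 0.50 ± 0.23 (adjusted p = 1 by limma) that was 0.32 without D0 mouse 4 and 0.73 without D0 mouse 5, and at D2 the change was 0.12 ± 0.24.

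Sqle stood at -0.01, -0.36, -0.47, -0.58 and 0.33 in D0 of forestomach, and at 0.63, 0.49, 1.13, -0.17 and -0.17 in D3. The lower D3 mice, 19 and 20, fell inside the D0 range and the other three were above it. The change was 0.60 ± 0.25 (1.51-fold, adjusted p = 0.454 by limma), and 0.57, 1.65 and -0.16 within the slides. Over all alternatives, the adjusted p lay between 0.112 and 1 for the D3 change of Fdps and between 0.154 and 1 for that of Sqle. With arrays centred on their median these changes were 1.04 and 1.14, both with an adjusted p of 1 by limma. Without mouse 5 of D0 the change of Fdps was 0.78, and without mouse 4 it was 0.37. The glandular stomach genes were well above background in full (8 of 8) on 3 of 5 D0 arrays and 1 of 5 D3 arrays, and their part in these differences was not tested. The keratinocyte genes followed Fdps on some arrays: D0 mice 3 and 4, the lowest in Fdps, had them at 4.81 and 4.92, mouse 5, the highest, at 6.40, and the D3 mice at 5.60 or more. On others they did not, since D0 mouse 2 had them at 6.32 and mouse 1 at 5.53 with the lower Fdps in mouse 2, and D3 mouse 19, the lowest of D3 in Fdps, had them highest, at 6.53. The arrays of mice 3 and 4 had 25.5% and 18.9% of spots well above background and that of mouse 5 had 50.3%, and the part of either in the difference was not tested.

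Srebf2 passed the unadjusted limit at D2 of forestomach, with -0.36, -0.23, -0.32, -0.19 and 0.16 in D0 and 0.42, 0.22, 0.01 and -0.15 in D2. The change was 0.32 ± 0.13 (adjusted p = 0.592 by limma), and with the mean of both Srebf2 probes it was 0.13 (adjusted p = 0.977 by limma). Its D3 change was 0.24 ± 0.12, and -0.0297 with the mean of both probes. All 4 D2 arrays of forestomach carried the 8 glandular genes well above background, and the part of this in the difference was not tested. The remaining D3 changes were 0.32 ± 0.19 for Hmgcs1, 0.02 ± 0.23 for Idi1, 0.0072 ± 0.23 for Lss and -0.08 ± 0.20 for Insig1. Insig1 was well above background on only 2 of 5 D0 arrays against 5 of 5 in D3, so its value there is uncertain.

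Whether the D3 change itself differed between tissues was tested by limma as an interaction. None of the 7 genes was called for any pair of tissues, against 0% of probes between liver and lung, 0.0806% between liver and forestomach and 0.764% between forestomach and lung. The largest differences were those of Fdps, -0.61 ± 0.25 for liver minus forestomach (adjusted p = 0.338), and Sqle, 0.56 ± 0.32 for forestomach minus lung (adjusted p = 0.475).

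The wider network was also below the limits. Among genes bright enough to test, which were 15 other pathway enzymes and 9 genes of fatty acid synthesis in each tissue, 9 genes of sterol control and uptake (8 in lung) and 11 of 12 of sterol removal in liver (8 in lung and in forestomach), 0 were called at any dose. Among the genes with the smallest p at D3 in forestomach were Mylip, a ubiquitin ligase, at 0.70 ± 0.24 (adjusted p = 0.31 by limma), and Mbtps1, a protease that cuts SREBP in the Golgi, at 0.52 ± 0.21 (adjusted p = 0.407). In lung they were Nsdhl, a sterol dehydrogenase, at 0.34 ± 0.12 (adjusted p = 0.184), Mylip at 0.30 ± 0.11 and Acly, which makes acetyl-CoA from citrate, at 0.32 ± 0.12, or 0.16 without mice 17 and 19. In liver Nr1h3, Srebf1 and Mylip were at -0.11, 0.18 and -0.14, with adjusted p values of 1.

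The third description concerns how the 7 genes varied among mice of the same dose. In liver they were high or low together from mouse to mouse, and all 7 varied more than the median probe. Deviations of each mouse from its dose-group mean correlated with a median Pearson r of 0.686 over the 21 pairs of genes (0.398 to 0.906, 19 mice), and 20 of 21 pairs were above 0.5. The median was 0.406 in lung, with 8 pairs above 0.5, and 0.420 in forestomach, also with 8. Of all pairs of a member with another named gene, 7.79% were above 0.5 in liver, 4.94% in lung and 6.44% in forestomach. These are descriptions: the pairs share mice, arrays and slides, and no test was made of the difference between tissues. A member and any other named gene had a median r of 0.016 in liver, 0.009 in lung and -0.020 in forestomach.

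**Figure D4:**
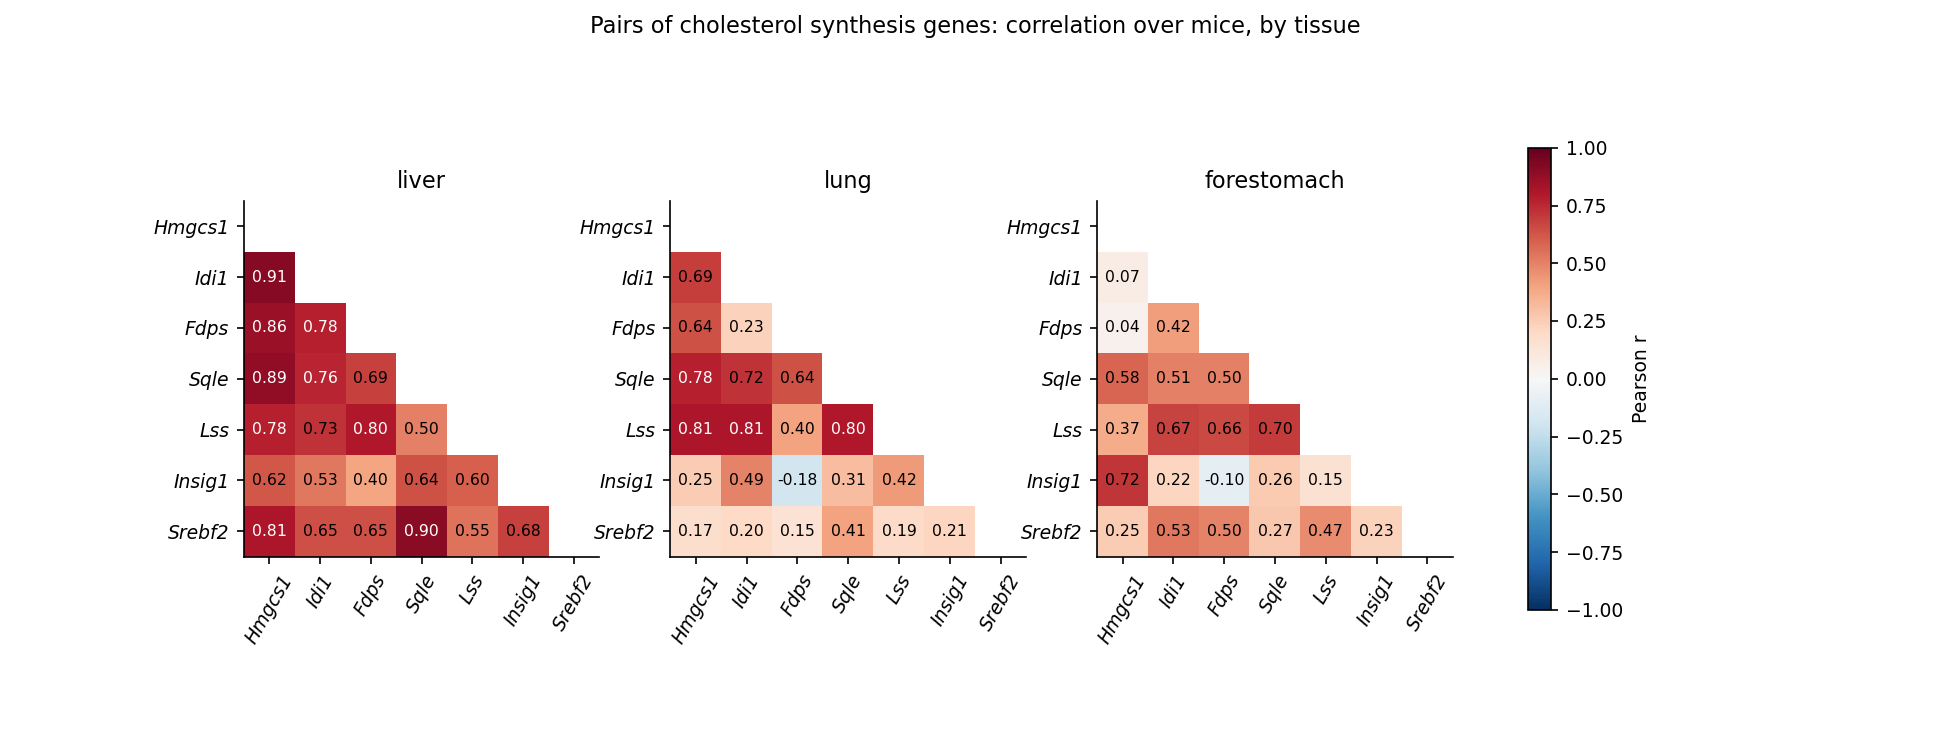
Pearson r of the deviations from dose-group means for each pair of genes, over 19 liver, 18 lung and 19 forestomach arrays. All 21 liver pairs are positive, from 0.40 to 0.91, whereas Insig1 with Fdps is at -0.18 in lung and -0.10 in forestomach. Insig1 was well above background on only 13 of the 19 forestomach arrays, so its pairs there are uncertain.

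The closest liver pairs were Hmgcs1 with Idi1 (r = 0.906), Srebf2 with Sqle (0.90), Hmgcs1 with Sqle (0.89) and Hmgcs1 with Fdps (0.86). The loosest was Fdps with Insig1 (0.40). Srebf2 correlated with the 6 others at 0.55 to 0.90 in liver and at 0.15 to 0.41 in lung. With slide means removed as well the median r was 0.728 in liver, and it lay between 0.639 and 0.783 with each mouse left out in turn. Such leave-outs gave 0.271 (without mouse 2) to 0.542 (without mouse 12) in lung, and 0.213 (without mouse 5, with 4 pairs above 0.5) to 0.463 in forestomach. With arrays centred on the median in place of the normalization within arrays, the median r was 0.752 in liver, 0.735 in lung and 0.971 in forestomach. No such values were computed for other genes under that centring, so nothing is read from them about this set.

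Many livers were high or low across the whole set. In 4 of 19 livers all 7 genes were above their dose-group mean, and in 6 all 7 were below it. These sides followed the slide in part: 4 of the 6 livers with all genes below (mice 1, 5, 13 and 20) were on the third slide, where 5 of 6 arrays had a negative mean deviation, and 0 of the 4 with all genes above were on it. With slide means removed the median r in liver was 0.728, and the part of the slide in these sides was not tested. All 7 genes lay on 1 side in 6 of 18 lungs and 2 of 19 forestomachs. The mean deviation ran from -0.44 (mouse 15, D2) to 0.55 (mouse 11, D2) in liver, so the widest contrast lay inside 1 dose group. Mouse 11 had the highest liver value of any mouse for Hmgcs1 (3.77), Idi1 (3.67), Fdps (2.79), Sqle (1.00), Lss (2.82) and Srebf2 (-0.50). Mouse 15 was lowest of its group for all of these but Srebf2, and lowest of all for Insig1 (1.62).

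**Figure D5:**
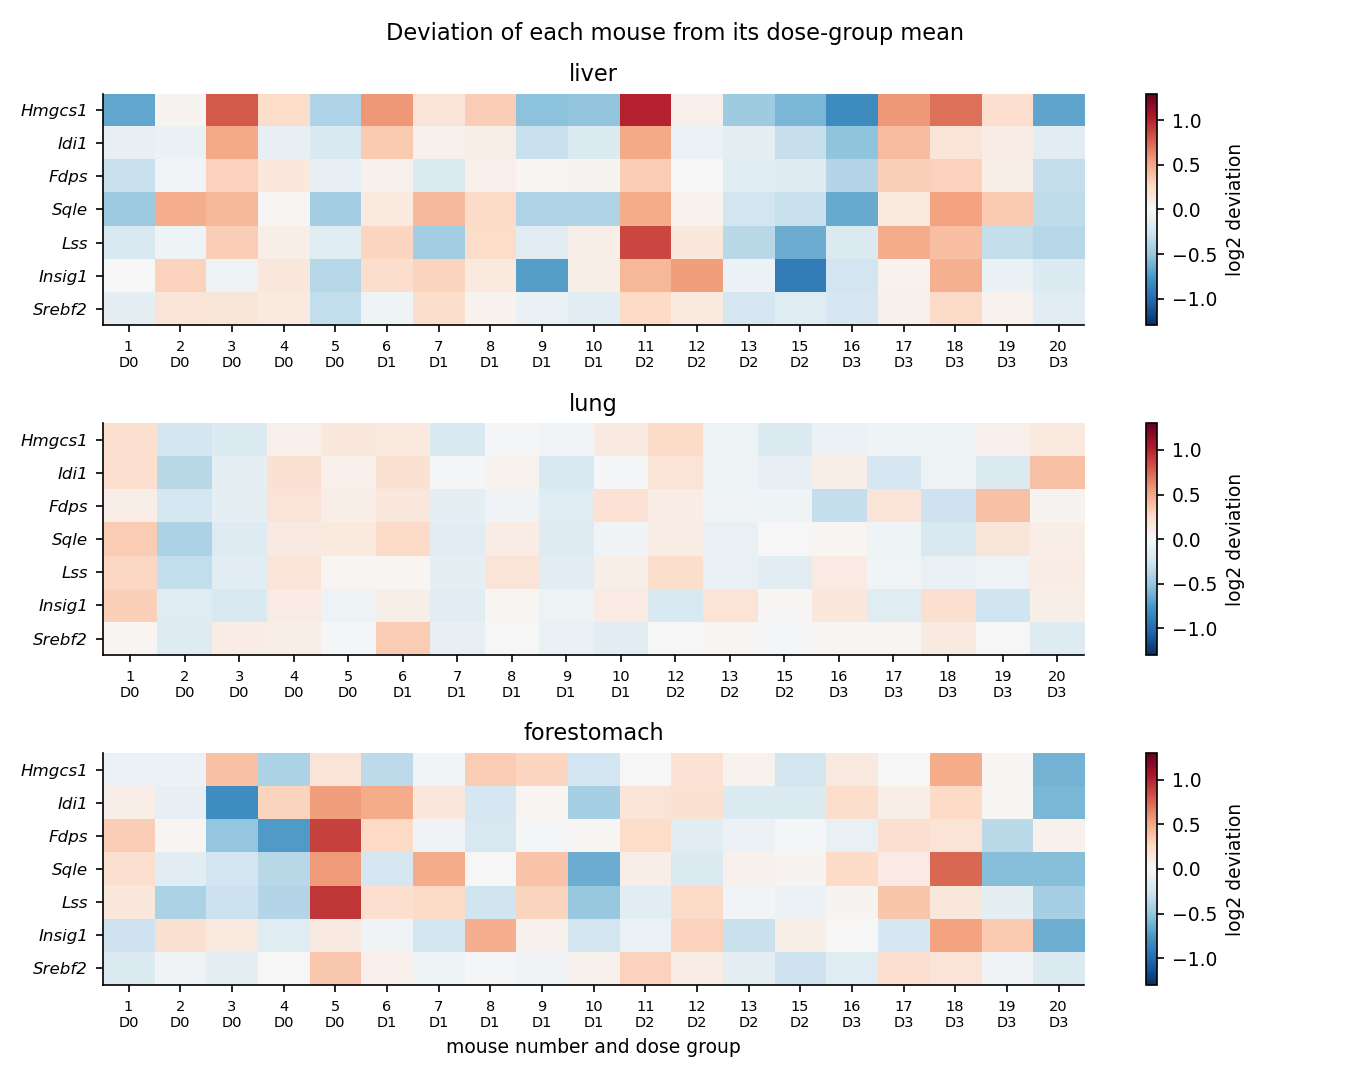
Deviation (log2, colour) of each mouse from the mean of its tissue and dose group, with genes in rows and mice in columns, by tissue. In liver, columns tend to hold 1 colour, as in mouse 11 (red) and mouse 16 (blue), and Hmgcs1 has the strongest colours.

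The spread of Hmgcs1 in liver was among the widest of all probes tested. Its residual SD of 0.627 (log2) was at the 99.0th percentile of 24795 probes, whose median was 0.156. Sqle (96.9), Insig1 (96.6), Lss (96.5) and Idi1 (91.8) followed, with Fdps (82.9) and Srebf2 (70.5) last. In lung the percentiles ran from 28.6 (Srebf2) to 73.6 (Idi1), and in forestomach from 16.8 (Srebf2) to 76.3 (Sqle). Over all 19 livers Hmgcs1 differed 4.98-fold between its lowest mouse, number 9, and its highest, number 11.

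Genes outside the set that moved most like it were ranked by their mean r with the 7. In liver the first 5 of 12610 genes were Msmo1 (0.803), Cyp51 (0.790), Erg28 (0.786), Fdft1 (0.779) and Mvk (0.777). Of these Fdft1 makes squalene, Cyp51 and Msmo1 remove methyl groups from lanosterol and its products, and Mvk is the mevalonate kinase. Of the 15 other pathway enzymes, 10 were within the first 100, with a median of 0.641, and the last were Tm7sf2 (0.329) and Acat2 (0.293). The 9 fatty acid synthesis genes had a median of 0.385 and none within the first 100, the 9 genes of sterol control and uptake one of 0.302 with 1 within it (Npc2, a lysosomal cholesterol carrier, at 0.718, named after its value was seen), and the 11 tested sterol removal genes one of -0.027. Scap, the escort of SREBP, was at -0.036.

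In lung the first 5 of 14753 genes were Msmo1 (0.599), Borcs7 (0.596), Pcyt2 (0.582), Cpsf3 (0.556) and Hnrnpa3 (0.554), and in forestomach, of 14073, Sh3bgrl3 (0.607), Tmem50b (0.578), Msmo1 (0.568), Atg4b (0.562) and Atp6v0d2 (0.555). Pathway enzymes made up 4 of the first 100 in each, out of 15. Other lists were there too, with 2 of 9 fatty acid synthesis genes in forestomach and 1 of 8 genes of sterol control and uptake in lung. The median of the pathway enzymes was 0.277 in lung and 0.398 in forestomach, where that of fatty acid synthesis was 0.309. Msmo1 was thus among the first 5 in all 3 tissues.

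The next comparison asks whether a mouse high in 1 tissue was high in another, and no relation passed. The deviations of the same mouse were compared between tissues for each gene, in 21 relations (7 genes, 3 pairs of tissues). Pearson r ran from -0.404 (Sqle, liver and lung, 18 mice; Spearman rho = -0.397) to 0.303 (Hmgcs1, liver and forestomach, 19 mice; rho = 0.298), and 9 of 21 were positive. Two-sided permutation of mice within dose groups gave p = 0.159 and p = 0.263 for these, and Benjamini-Hochberg adjusted values of 0.936 for both. None of the 21 passed at an adjusted p of at most 0.05, and 0 at an unadjusted one; 0 passed for rho after adjustment. With the 2 mice farthest from the median left out these r were -0.314 and 0.399, and with slide means removed -0.348 and 0.177. Over all 21 relations, leaving out the 2 farthest mice gave r from -0.53 (Insig1, forestomach and lung) to 0.584 (Srebf2, liver and forestomach), with 2 below the unadjusted limit and 0 after adjustment. Median centring gave -0.572 to 0.316, with 1 and 0.

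The 10 clock output genes (such as Dbp and Per2), whose levels follow the time of day, were compared with the 7 genes over mice in the same way, since cholesterol synthesis is known to be rhythmic. This comparison was added after the data had been seen. The clock genes themselves differed between dose groups, with overlapping ranges. Their median level from D0 to D3 was -0.22, 0.24, 0.70 and 0.57 in liver and 0.15, 0.22, 0.69 and 0.25 in lung. In forestomach it was -0.53, -0.50, -0.39 and -0.35. Deviations from dose-group means leave this out, and its part in the dose changes of the 7 genes was not tested. None of the 21 relations within tissues passed after adjustment by the permutation test, and 1 did before it, Insig1 in liver (r = -0.574, rho = -0.507, permutation p = 0.0436, adjusted p = 0.804), which was -0.315 without the 2 farthest mice and -0.516 with slide means removed. For Hmgcs1 in liver r was -0.14 and rho -0.093 (permutation p = 0.624, adjusted p = 0.883), and r was -0.441 with slide means removed. With slide means removed all 7 liver genes had a negative r, from -0.214 (Fdps) to -0.516 (Insig1), which was not tested. With arrays centred on their median, the forestomach r of the 7 genes, between -0.442 and 0.268 otherwise, were 0.906 to 0.959. Under that centring the 7 genes also correlated with each other at a median of 0.971 in forestomach, so nothing is read from it about the clock genes.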

How the data were processed

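RNA from liver, lung and forestomach was hybridised by the authors to 8 × 60K mouse arrays with 2 colours, Cy5 for the sample and Cy3 for the common reference, in 1 dye orientation, and scanner files were made with Feature Extraction 10.7.3.1. The deposited values table holds log2 ratios, which the authors normalized by LOWESS within each array on median signals without background subtraction. These values followed loess ratios remade from the deposited median signal intensities (r = 0.977 to 0.998, slope 0.953 to 0.996). The deposited flags, scored 0 or 1, mark spots well above background or non-uniform. Genes were named from RefSeq accessions (GRCm38.p6), which covered 26413 of 55681 probes, 47.4%.

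The members and lists were chosen with earlier results of these data known. A probe was tested where Cy5 was well above background on at least 3 arrays of the tissue (24795 in liver, 31515 in lung, 27541 in forestomach), and values of non-uniform spots were set to missing. limma 3.58.1 in R 4.3.3 fitted dose groups within a tissue, or tissue and dose over all 56 arrays, two-sided, with Benjamini-Hochberg adjustment over all probes tested. Levels between tissues are contrasts of the 4 dose-group means, and the ± after such a mean over arrays is an SD. Relations over mice used 100000 permutations within dose groups in Python 3.11.15 with NumPy 2.4.6 and SciPy 1.17.1. Beside the 7 genes, the 3 list genes of each tissue with the smallest p at D3 and the 5 genes most like the set were named, except that some list genes are not reported here; Mvk, Scap, Npc2 and the last 2 pathway genes were named in addition. The scripts were tested on simulated data.

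Alternatives were remade loess ratios, normexp with an offset of 50, median centring, slide as a block, array column as a covariate, array weights, no filter on dim probes, probes well above background on every array, flagged spots kept, an Fs statistic with shuffled residuals, the mean of a gene's probes, the mouse as a replicate block between tissues, each mouse left out, and lung mice 17 and 19 of D3 left out together. Mouse numbers pair arrays of different tissues because they are the same animal, and the consensus correlation of such arrays was 0.026. Each array is 1 mouse, and the number of mice limits the precision. Other compounds of the study were not analysed here.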

Additional observations from a re-analysis of the deposited data

Results flagged for a closer look

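In 5 of 77 groups of a gene, tissue and dose, 1 mouse stood apart from the others by Dixon's criterion, which chance meets in about 1 in 20 groups. In liver, Idi1 was at 3.53 in mouse 3 of D0, with the others at 2.83 to 2.94. Fdps was at 2.14 in liver mouse 7 of D1, with the others at 2.36 to 2.40, and Insig1 at 1.69 in liver mouse 9 of D1, with the others at 2.49 to 2.70. In forestomach, Idi1 was at 0.88 in mouse 20 of D3, with the others at 1.49 to 1.72, and Sqle at -0.19 in mouse 12 of D2, with the others at 0.04 to 0.08.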

How the results depend on the processing

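The count of the 7 genes called for dose stayed at 0 in every alternative run. Between tissues, with the mouse as a replicate block, 6 of 7 genes were called for each pair, as without it, and the block changed no other call. Median centring called 7 between liver and lung, of which Srebf2 was lower in liver. Between forestomach and lung it called 4 (Hmgcs1, Idi1, Insig1 and Srebf2), all lower in forestomach, where the fit without it called 6 higher. The mean of a gene's probes called 5 between liver and forestomach.

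Signs turned as follows, and the cause was not tested. With median centring, forestomach minus lung was -0.89 for Hmgcs1, -1.25 for Idi1, -0.42 for Fdps, -0.56 for Sqle, -0.20 for Lss, -0.90 for Insig1 and -1.13 for Srebf2, and Srebf2 in liver minus lung was -1.43, or -0.19 with remade loess ratios. The tissue difference of the D3 change with median centring was -0.27 for Hmgcs1, -0.17 for Sqle, -0.19 for Lss and -0.11 for Insig1 (liver minus lung), -0.11 for Lss (liver minus forestomach) and 0.34 for Idi1 (forestomach minus lung). With loess ratios it was -0.0459 for Hmgcs1, -0.0152 for Lss and 0.0848 for Idi1 in the same pairs, and with the mean of probes -0.0470 for Srebf2 (forestomach minus lung), whose forestomach D3 change became -0.0297. With slide as a block the D3 change was -0.0251 for Hmgcs1 in liver, -0.0336 for Idi1 and -0.0378 for Lss in forestomach. With array column as a covariate it was 0.11 for Fdps in liver, -0.0525 for Idi1 in forestomach and, in lung, -0.54 for Hmgcs1, -0.16 for Idi1, -0.52 for Fdps, -0.0930 for Sqle, -0.11 for Lss, 0.63 for Insig1, -0.44 for Nsdhl and -0.65 for Mylip. Insig1 in lung was 0.0540 with loess, 0.0506 with normexp, 0.17 with median centring, 0.0573 with array weights and 0.13 without mice 17 and 19. The median r among the 7 genes with median centring was 0.735 in lung and 0.971 in forestomach.

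With each mouse left out, the D3 change in liver ran from -0.0635 to 0.32 for Hmgcs1, -0.19 to 0.0375 for Idi1, -0.13 to 0.0461 for Fdps and -0.0101 to 0.18 for Insig1. The liver range was 0.0298 to 0.33 for Sqle, 0.0372 to 0.25 for Lss and -0.155 to -0.0183 for Srebf2. In lung the change ran from -0.0619 to 0.0896 for Idi1, -0.0606 to 0.12 for Sqle and -0.0568 to 0.0717 for Insig1. The lung range was 0.0126 to 0.13 for Hmgcs1, 0.16 to 0.33 for Fdps, 0.0505 to 0.20 for Lss and 0.0479 to 0.13 for Srebf2. In forestomach it ran from -0.18 to 0.17 for Idi1, -0.0943 to 0.24 for Lss and -0.21 to 0.0771 for Insig1. The forestomach range was 0.20 to 0.47 for Hmgcs1, 0.37 to 0.78 for Fdps, 0.41 to 0.74 for Sqle and 0.19 to 0.33 for Srebf2.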
